A study of Mus musculus with 8 samples.

Results

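The genes described here were 10 regulators of G protein and Ras family signalling in mouse osteoclasts, namely *Rasgef1a*, *Rasgef1b*, *Rgs1*, *Rgs2*, *Rgs10*, *Rgs11*, *Rgs12*, *Rgs14*, *Rgs18* and *Rgs19*. They were chosen by name. *Rasgef1a* and *Rgs11* were selected on the genotype contrast of these same libraries, where the study names them among its altered genes, and the other 8 were added as paralogs of these genes used in myeloid cells. All 10 were found by Ensembl identifier among the 46517 genes of the deposited table, and 9 of the 10 had at least 10 normalized counts in at least 4 libraries, the limit for testing, which 14139 genes of the whole table passed. *Rasgef1b* did not pass it.

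Marrow of 6–8-week-old mice was cultured into osteoclasts, the multinucleated cells of bone resorption, with medium conditioned by L929 cells, which supplies macrophage colony-stimulating factor, and then with GST-RANKL at 50 ng/ml for 7 days. The libraries came from 4 Elmo1-/- mice, which lack *Elmo1* in every tissue, and 4 Elmo1+/- mice, which keep 1 intact copy and served as the controls, with 1 library per mouse. Control titles read wild-type, but the genotype labels and the study's methods give Elmo1+/-, so the contrast is between no copy and 1 copy. The sex of each mouse is not given in the sources used here, and since the deletion was in every tissue, the contrast is not limited to the osteoclast. RNA was read as a bulk mixture of each culture, so fewer cells of a type and less RNA per cell cannot be told apart.

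RGS proteins (regulators of G protein signalling) bind the active, GTP-loaded alpha subunit of a heterotrimeric G protein and speed the hydrolysis of its GTP, which shortens the signal of the receptor upstream. The family is divided by sequence into subfamilies, of which R4 proteins are short, R7 proteins work together with the beta subunit Gβ5, R12 proteins include the multidomain Rgs12 and Rgs14, and RZ proteins include Rgs19. RasGEF1 proteins act on another class of switch, the small GTPases of the Ras family, where exchange factors load GTP and so start a signal. In the osteoclast lineage, Rgs10 and Rgs12 are known for their part in the calcium signals that follow RANKL.

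The promoters are shown first, since they hold the members' starts of transcription. RefSeq promoter windows on GRCm38.p6, each from 250 bases before to 50 bases after a transcription start, were matched by symbol for 6 of the 10 members (*Rasgef1a*, *Rasgef1b*, *Rgs2*, *Rgs10*, *Rgs12* and *Rgs19*), 10 windows in all. Both *Rasgef1a* starts are printed because this was the member whose genotypes did not overlap, *Rgs10* because it had the highest level per length of the 10, *Rgs19* because it was the steadiest, and the second start of *Rgs12* because it held 2 of the searched motifs. Capitals mark matches to GAGGAA (the core bound by PU.1, a master factor of the myeloid lineage), TGANTCA (the AP-1 site) and CACGTG (an E-box), each searched on both strands, and sequences run 5′ to 3′ on the strand of the gene.
Rasgef1a, start 1, chr6:118011255-118011554, plus strand: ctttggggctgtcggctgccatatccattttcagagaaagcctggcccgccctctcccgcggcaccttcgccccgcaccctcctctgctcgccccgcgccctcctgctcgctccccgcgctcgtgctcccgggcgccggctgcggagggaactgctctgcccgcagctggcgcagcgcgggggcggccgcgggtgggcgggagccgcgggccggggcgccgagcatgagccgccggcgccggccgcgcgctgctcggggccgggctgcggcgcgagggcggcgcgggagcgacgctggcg
Rasgef1a, start 2, chr6:118066135-118066434, plus strand: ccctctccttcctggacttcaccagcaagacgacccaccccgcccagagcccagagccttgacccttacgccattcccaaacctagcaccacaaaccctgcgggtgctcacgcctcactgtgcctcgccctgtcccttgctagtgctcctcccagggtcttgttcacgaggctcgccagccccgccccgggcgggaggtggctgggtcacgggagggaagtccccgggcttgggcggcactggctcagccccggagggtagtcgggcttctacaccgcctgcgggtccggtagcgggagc
Rgs10, chr7:128418123-128418422, minus strand: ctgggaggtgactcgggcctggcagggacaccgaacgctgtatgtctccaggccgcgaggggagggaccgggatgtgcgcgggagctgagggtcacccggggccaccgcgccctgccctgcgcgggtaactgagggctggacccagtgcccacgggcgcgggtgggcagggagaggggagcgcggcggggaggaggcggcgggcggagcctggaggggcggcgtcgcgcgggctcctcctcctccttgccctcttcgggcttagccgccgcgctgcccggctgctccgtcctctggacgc
Rgs12, start 2, chr5:34998828-34999127, plus strand: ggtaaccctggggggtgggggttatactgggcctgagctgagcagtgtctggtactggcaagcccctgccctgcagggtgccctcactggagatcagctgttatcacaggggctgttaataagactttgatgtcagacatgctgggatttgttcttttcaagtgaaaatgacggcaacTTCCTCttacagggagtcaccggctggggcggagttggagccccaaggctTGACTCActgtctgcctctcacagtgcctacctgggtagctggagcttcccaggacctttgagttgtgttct
Rgs19, start 2, chr2:181693761-181694060, minus strand: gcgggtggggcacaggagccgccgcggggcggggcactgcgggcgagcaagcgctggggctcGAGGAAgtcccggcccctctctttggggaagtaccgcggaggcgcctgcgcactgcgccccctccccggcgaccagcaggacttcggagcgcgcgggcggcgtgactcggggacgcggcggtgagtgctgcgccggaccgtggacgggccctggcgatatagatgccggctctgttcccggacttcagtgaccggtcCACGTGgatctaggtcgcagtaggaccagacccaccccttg

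The upstream *Rasgef1a* window was rich in CpG, with 48 CpG dinucleotides and 79.7% G or C, against a median of 7 and 52.7% over the 32851 promoter windows of the table. Its downstream window held 20 CpG and 68.3% G or C. *Rgs10* (34 CpG), *Rgs2* (33) and *Rasgef1b* (35) were of the same CpG-rich kind, whereas the second *Rgs12* window held 3 CpG. GAGGAA stood in all 3 *Rgs19* windows, in the *Rasgef1b* window and, on the opposite strand, in the second *Rgs12* window, and in 28.3% of all windows. Windows 2 and 3 of *Rgs19* overlap, and their GAGGAA is the same site. TGANTCA was found in the second *Rgs12* window (7.81% of all windows), CACGTG in the second *Rgs19* window (7.15%), and TATAAA, searched on the gene's strand, in none of the 10 (8.32%). Both *Rasgef1a* windows, like those of *Rgs2* and *Rgs10* and the first of *Rgs12*, held none of the 4 motifs, which says only that these letters are absent from these 300 bases.

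Depth was between 20905502 and 40846651 reads on genes per library. *Elmo1*, the deleted gene, averaged 292 ± 17.6 normalized counts for Elmo1-/- mice and 1593 ± 150.3 for Elmo1+/- mice (SD, n = 4), so the libraries matched their labels, and the log2 difference was -2.44 (limma, adjusted p = 8.4e-06). Libraries numbered 1 and 2 in each genotype differed from those numbered 3 and 4 along the first principal component, which held 62.3% of the variance. All 10 osteoclast markers were measured and all were higher in libraries 3 and 4 without overlap, with a summed level of 1029113 to 1173015 against 450909 to 692445 in libraries 1 and 2. The methods describe 2 experiments with 2 mice per genotype each but do not say which mice shared one, so an experiment and any other difference between these sets cannot be told apart, and differences between the sets are given as descriptions.

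Between genotypes, *Rasgef1a* was the only member whose libraries did not overlap, with a mean of 27.2 ± 4.73 normalized counts for Elmo1-/- mice and of 42.8 ± 3.70 for Elmo1+/- mice (SD, n = 4). None of the 9 tested members was called at an adjusted p under 0.05 by limma or by edgeR, where by limma 0.00707% of all tested genes were (1 gene, *Elmo1* itself). Of the 7 tested members that the study had not chosen, 0 had an unadjusted p under 0.05, against 0.941% of all tested genes. Members whose genotypes did not overlap numbered 1 of 9, against 0.941% (133 genes) of all tested genes, and nothing is read from it because *Rasgef1a* was selected on this contrast. The median of the absolute log2 difference was 0.095 over the 7 tested members not chosen by the study and 0.059 over all tested genes.

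*Rasgef1a* encodes an exchange factor of the RasGEF1 family that acts on Rap2, a small GTPase related to Ras. It lies on the plus strand of chromosome 6 (GRCm38, 118011438 to 118091546). Its normalized counts were 34.1, 23.9, 24.2 and 26.4 across Elmo1-/- mice 1 to 4, against 42.3, 38.6, 42.6 and 47.6 across Elmo1+/- mice 1 to 4. The highest Elmo1-/- library, that of mouse 1, was below the lowest Elmo1+/- library, that of mouse 2. The difference was -0.65 on the log2(normalized count + 1) scale (SE 0.18), given as a description with no test because the gene was selected on it. It was -0.49 within libraries 1 and 2 and -0.81 within libraries 3 and 4, while the sets themselves differed by -0.01. Recomputed here in the form of the study's ratio, the Elmo1-/- mean over the sum of both means, it was 0.388 over all libraries. This ratio was 0.418 in libraries 1 and 2 and 0.360 in libraries 3 and 4. The study printed an average ratio for *Rasgef1a* below the value over all libraries and between those of the sets. These values rested on 20 to 50 reads per library, few enough that counting error weighs on each value.

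*Rasgef1b*, the close paralog of *Rasgef1a* that macrophages induce on stimulation of Toll-like receptors, was near the limit of detection, with 4 to 10 reads per library. It stood at 9.46, 7.18, 4.17 and 4.67 normalized counts across Elmo1-/- mice 1 to 4, against 4.60, 3.95, 6.09 and 5.71 across Elmo1+/- mice 1 to 4. The genotypes overlapped, with Elmo1-/- higher in libraries 1 and 2 and lower in libraries 3 and 4. A genotype difference was not detectable at this depth (exact permutation test, two-sided, p = 0.371). The third paralog, *Rasgef1c*, was listed at 0 in all 8 libraries, so *Rasgef1a* was the only RasGEF1 gene that passed the limit for testing.

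**Figure D1:**
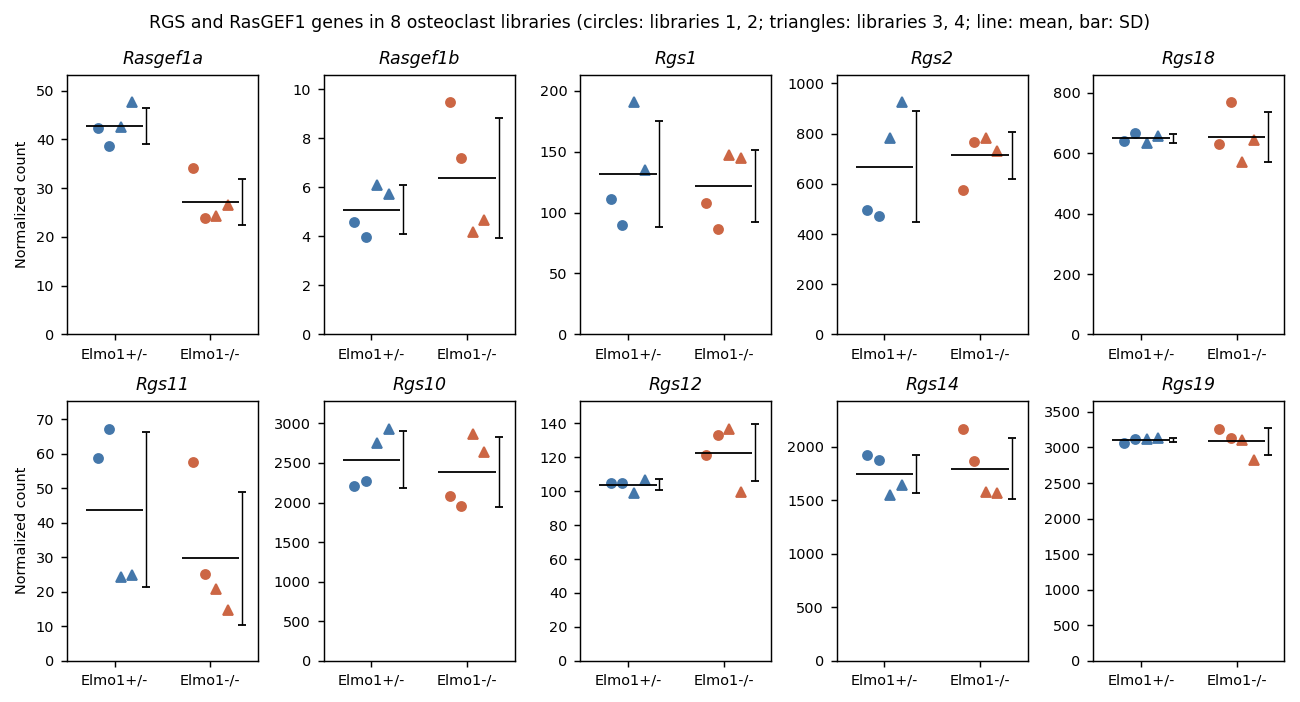
Normalized counts (y axis, from 0) of the 10 genes in Elmo1+/- and Elmo1-/- osteoclasts (x axis), with 1 point per mouse, circles for libraries 1 and 2, triangles for libraries 3 and 4, a line at the mean and a bar of 1 SD. *Rasgef1a* alone separates the genotypes, with Elmo1+/- at 38.6 or above and Elmo1-/- at 34.1 or below, whereas *Rgs1*, *Rgs10*, *Rgs11* and *Rgs14* separate circles from triangles.

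Levels of the members spanned a wide range. Per kb of the longest coding transcript, and as the mean normalized count over 8 libraries, the order was *Rgs10* (2801), *Rgs19* (2049), *Rgs14* (752), *Rgs18* (321), *Rgs2* (228), *Rgs1* (32.9), *Rgs12* (20.7), *Rgs11* (18.3), *Rasgef1a* (10.6) and *Rasgef1b* (1.72). The ranges over libraries of neighbours in this order overlapped for *Rgs18* and *Rgs2*, *Rgs1* and *Rgs12*, *Rgs12* and *Rgs11*, and *Rgs11* and *Rasgef1a*, and did not overlap for the other 5 neighbouring pairs. With the merged length of all annotated exons in place of the transcript, *Rgs11* (8.73 per kb) fell below *Rasgef1a* (10.4) and the rest of the order was kept. By that length *Rgs10* (1441) was close to *Rgs19* (1388). Without division by length, the mean of *Rgs19* (3096 normalized counts) was above that of *Rgs10* (2465), so the top place depends on the length used. *Rgs10*, a small R12 protein, and *Rgs19*, an RZ protein also known as GAIP, were at the top of the order, and the 2 genes that the study had selected were near its foot, above *Rasgef1b* alone.

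Of the 14 other RGS and RasGEF1 genes, 3 passed the limit for testing. *Rgs3*, an R4 gene, had 33.7 normalized counts per kb, *Rgs16*, also R4, had 27.7, and *Rgs9*, the R7 gene known from photoreceptors and the striatum, had 4.92. Their log2 differences between genotypes were 0.03, 0.14 and 0.10, and 0 of the 3 were called by limma. *Rgs21*, *Rgs22* and *Rasgef1c* were listed at 0 in every library, and the other 8 genes reached at most 5.01 normalized counts in any library.

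**Figure D2:**
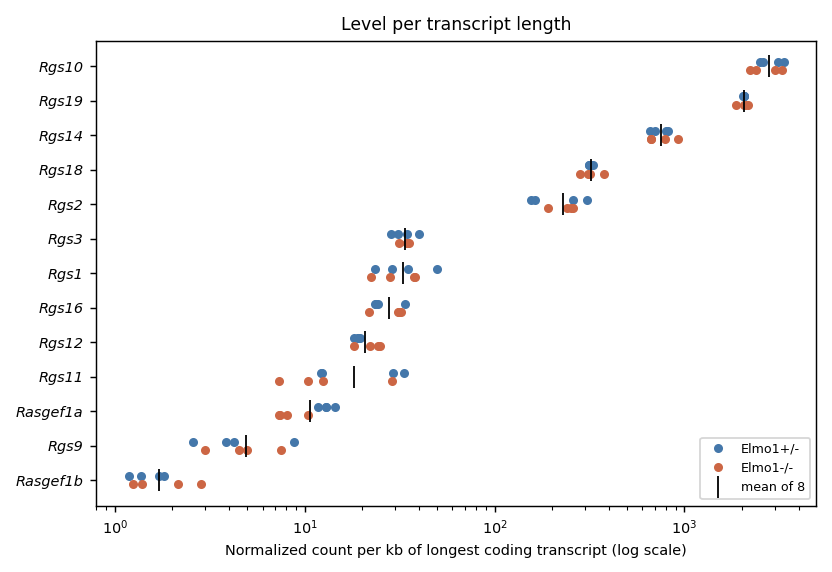
Normalized count per kb of the longest coding transcript (x axis, log scale) of the 10 members and of the 3 other family genes tested (y axis), with 1 point per library in each genotype and a tick at the mean of 8. *Rgs10*, *Rgs19* and *Rgs14* lie above 600 in every library, and *Rasgef1b* lies below 3.

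Among the R4 members, *Rgs1*, which dampens chemokine receptor signals in lymphocytes, did not separate the genotypes. Its normalized counts were 107.8, 86.2, 146.9 and 144.7 across Elmo1-/- mice 1 to 4, against 111.3, 89.97, 190.3 and 135.1 across Elmo1+/- mice 1 to 4. In both genotypes, mice 3 and 4 were above mice 1 and 2, without overlap between the sets. The genotype difference was -0.09 (SE 0.26, log2 scale, exact permutation test p = 0.771, limma adjusted p = 0.9999), while libraries 3 and 4 were higher than libraries 1 and 2 by 0.63, or 1.56-fold. The 5 T cell markers summed to 21.8 to 34.9 normalized counts in libraries 1 and 2 and to 69.3 to 83.8 in libraries 3 and 4, the direction of *Rgs1*. The 5 B cell markers went the other way with overlap, at 341 to 678 in libraries 1 and 2 and 257 to 366 in libraries 3 and 4. The part of either list in the level of *Rgs1* was not tested. Of the T cell markers, 2 passed the limit for testing and 1, *Trac*, was higher in libraries 3 and 4 without overlap, while *Cd3g* was at 0 in every library and *Cd3d* at 3.78 or less.

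*Rgs2*, an R4 protein with a preference for Gq, lies on chromosome 1 near *Rgs1*. It had 575, 765, 780.4 and 730.5 normalized counts across Elmo1-/- mice 1 to 4, against 494, 472, 781 and 924 across Elmo1+/- mice 1 to 4. The Elmo1+/- libraries split into a low pair (mice 1 and 2) and a high pair (mice 3 and 4), and all 4 Elmo1-/- libraries lay between them. The genotype difference was 0.14 (SE 0.22, exact permutation test p = 0.771, limma adjusted p = 0.9999), but it was 0.46 in libraries 1 and 2 and -0.17 in libraries 3 and 4. This change of direction was tested as an interaction and was not called (difference of -0.63, SE 0.21, limma unadjusted p = 0.0140, adjusted p = 0.9999).

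*Rgs18*, the R4 gene known best from platelets and megakaryocytes, was among the steadiest. It had 630, 769, 570.1 and 646 normalized counts across Elmo1-/- mice 1 to 4, against 641, 668, 635 and 657 across Elmo1+/- mice 1 to 4. The Elmo1+/- values lay inside the range of the Elmo1-/- values. Means were 654 ± 83.3 and 650.3 ± 15.1 (SD, n = 4), with a log2 difference of -0.00 (95% confidence interval -0.22 to 0.21, exact permutation test p = 0.943, limma adjusted p = 0.9999). Of the 5 megakaryocyte markers, *Itga2b*, *Gp9* and *Gp1bb* were at 7.36 normalized counts or less in every library, while *Pf4* (mean 25229) and *Ppbp* (mean 1813) were high, and the summed level of the list was 27993 to 28451 in Elmo1-/- and 21589 to 29764 in Elmo1+/- libraries.

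*Rgs2*, *Rgs1* and *Rgs18* lie in 1 stretch of chromosome 1 on the minus strand, in the order *Rgs2*, *Rgs13*, *Rgs1*, *Rgs21* and *Rgs18* (GRCm38, 143999338 to 144775435). The gaps between these neighbours were 134 kb, 64.9 kb, 267 kb and 185 kb. *Rgs21* was listed at 0 and *Rgs13* reached 1.90 normalized counts at most, so 3 of the 5 neighbouring genes passed the limit for testing. Between the sets of libraries, *Rgs1* was higher by 0.63 and *Rgs2* by 0.50 in libraries 3 and 4 and *Rgs18* differed by -0.11.

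*Rgs11* encodes an R7 protein, known from retinal bipolar cells, and was the other gene that the study had selected. It had 57.7, 25.1, 20.9 and 14.8 normalized counts across Elmo1-/- mice 1 to 4, against 58.9, 67.2, 24.4 and 24.7 across Elmo1+/- mice 1 to 4. The high libraries were Elmo1-/- mouse 1 and Elmo1+/- mice 1 and 2, and the genotypes overlapped. Means were 29.6 ± 19.2 and 43.8 ± 22.5 (SD, n = 4), a log2 difference of -0.58 with an SE of 0.48, given as a description. Within libraries 1 and 2 the difference was -0.71, and within libraries 3 and 4 it was -0.46. Recomputed in the form of the study's ratio, *Rgs11* was at 0.403 over all libraries. This ratio was 0.397 in libraries 1 and 2 and 0.421 in libraries 3 and 4. The study printed an average ratio for *Rgs11* below each of these values. Libraries 3 and 4 held 0.406 of the level of libraries 1 and 2, a log2 difference of -1.20, although Elmo1-/- mouse 2 (25.1) was hardly above Elmo1+/- mouse 4 (24.7). The values rested on 16 to 68 reads per library, and the coefficient of variation over 8 libraries, 56.6%, was the highest of the 10 members. The single-library dependence was also the largest: without Elmo1-/- mouse 1 the genotype difference was -0.96 and without Elmo1-/- mouse 4 it was -0.33.

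*Rgs11* was low in the libraries in which osteoclast markers were high. *Ctsk*, the collagen-degrading cathepsin, was 1.58 higher on the log2 scale in libraries 3 and 4 and *Acp5*, the TRAP enzyme, 1.28 higher. The macrophage receptor *Mrc1* differed by -1.13, with 11104 counts in Elmo1-/- mouse 1, 5770 in mouse 2, and 4234 and 4942 in mice 3 and 4. Across Elmo1+/- mice 1 to 4 it had 10475, 11636, 4384 and 3750. Of the 6 macrophage markers, 2, *Mrc1* included, were lower in libraries 3 and 4 without overlap (34.0% of all tested genes, either direction). The summed level of the 6 was 366529 to 393716 in libraries 1 and 2 and 314123 to 398006 in libraries 3 and 4. The part of these shifts in the level of *Rgs11* was not tested. *Gnb5*, the Gβ5 partner without which R7 proteins are unstable, went the other way from *Rgs11*, with 121, 151, 249 and 233 normalized counts across Elmo1-/- mice 1 to 4, against 154.5, 164, 253 and 252 across Elmo1+/- mice 1 to 4. It was 0.75 higher on the log2 scale in libraries 3 and 4, without overlap. *Rgs9*, the other R7 gene above the limit for testing, was higher by 0.72 in libraries 3 and 4 but overlapped between the sets.

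In the R12 group, *Rgs10* showed overlapping genotypes at a high level. Its normalized counts were 2086, 1953, 2870 and 2639 across Elmo1-/- mice 1 to 4, against 2213, 2271, 2753 and 2933 across Elmo1+/- mice 1 to 4. All mice 3 and 4 were above all mice 1 and 2, by 0.39 on the log2 scale or 1.31-fold. The genotype difference was -0.10 (SE 0.15, 95% confidence interval -0.43 to 0.23, exact permutation test p = 0.543, limma adjusted p = 0.9999). Like the osteoclast markers, *Rgs10* was higher in libraries 3 and 4, by less than *Ctsk* and *Acp5*.

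*Rgs12*, a multidomain R12 protein, had the largest genotype difference among the 7 tested members not chosen by the study. Its normalized counts were 121.1, 132.9, 136.9 and 99.6 across Elmo1-/- mice 1 to 4, against 104.8, 104.8, 98.98 and 106.6 across Elmo1+/- mice 1 to 4. Elmo1-/- mice 1 to 3 were above every Elmo1+/- mouse, and mouse 4 lay within the Elmo1+/- range. The difference of 0.23 (SE 0.13, 95% confidence interval -0.07 to 0.52) was not past the threshold (exact permutation test p = 0.114, limma adjusted p = 0.9999). It was 0.27 in libraries 1 and 2 and 0.18 in libraries 3 and 4, and 0.32 without Elmo1-/- mouse 4, where the genotypes no longer overlapped. Antisense *Gm43791*, which shares 467 exonic bases with *Rgs12*, was at 0 in every library.

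*Rgs14*, the other multidomain R12 protein, with Ras-binding domains beside its RGS domain, lies on chromosome 13, 34.8 Mb from *Elmo1*. It had 2168, 1869, 1577 and 1571 normalized counts across Elmo1-/- mice 1 to 4, against 1920.3, 1876, 1553 and 1641 across Elmo1+/- mice 1 to 4. Mice 1 and 2 were above mice 3 and 4 in both genotypes, so *Rgs14* stood opposite to *Rgs10* between the sets, with a log2 difference of -0.30 between libraries 3 and 4 and libraries 1 and 2. The genotype difference was 0.03 (SE 0.12, exact permutation test p = 0.886, limma adjusted p = 0.9999).

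*Rgs19*, the RZ protein, had the smallest coefficient of variation over 8 libraries, 3.97%. Its normalized counts were 3265, 3139, 3107 and 2828 across Elmo1-/- mice 1 to 4, against 3061, 3119, 3120.0 and 3130.3 across Elmo1+/- mice 1 to 4. All but Elmo1-/- mouse 4 lay within a narrow band, and the genotypes overlapped. The genotype difference was -0.01 (SE 0.06, 95% confidence interval -0.15 to 0.13, exact permutation test p = 0.857, limma adjusted p = 0.9999), and the sets differed by -0.05. It was the most precise of the members' estimates, with 2049 to 3722 reads per library behind it.

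**Figure D3:**
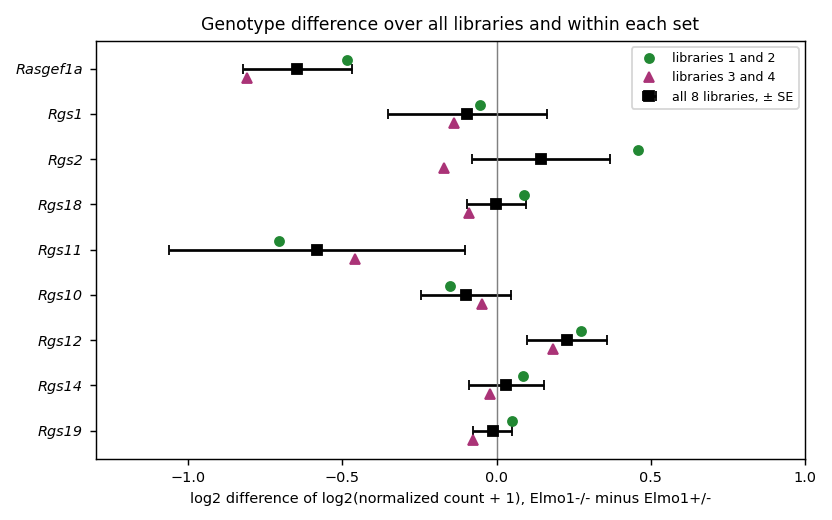
Log2 difference between genotypes (x axis, Elmo1-/- minus Elmo1+/-, on the log2(normalized count + 1) scale) for the 9 tested members (y axis), over all 8 libraries with the SE as a square with a bar, within libraries 1 and 2 as circles and within libraries 3 and 4 as triangles. *Rasgef1a* and *Rgs11* lie left of 0 in both sets and *Rgs12* right of 0 in both, while *Rgs2* runs from 0.46 to -0.17. The study selected *Rasgef1a* and *Rgs11* on this contrast, so nothing is read from their agreement between the sets.

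Between the sets of libraries, 4 of the 9 tested members did not overlap, namely *Rgs1* and *Rgs10*, which were higher, and *Rgs11* and *Rgs14*, which were lower in libraries 3 and 4, against 34.0% (4803 genes) of all tested genes. A set difference larger than the genotype difference was seen in 6 of the 7 tested members not chosen by the study and in 80.8% of all tested genes. The members' median absolute set difference was 0.30 on the log2 scale, against 0.21 over all tested genes. Genotype differences had the same direction in both sets for 3 of the 7 tested members not chosen by the study, against 48.8% of all tested genes.

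**Figure D4:**
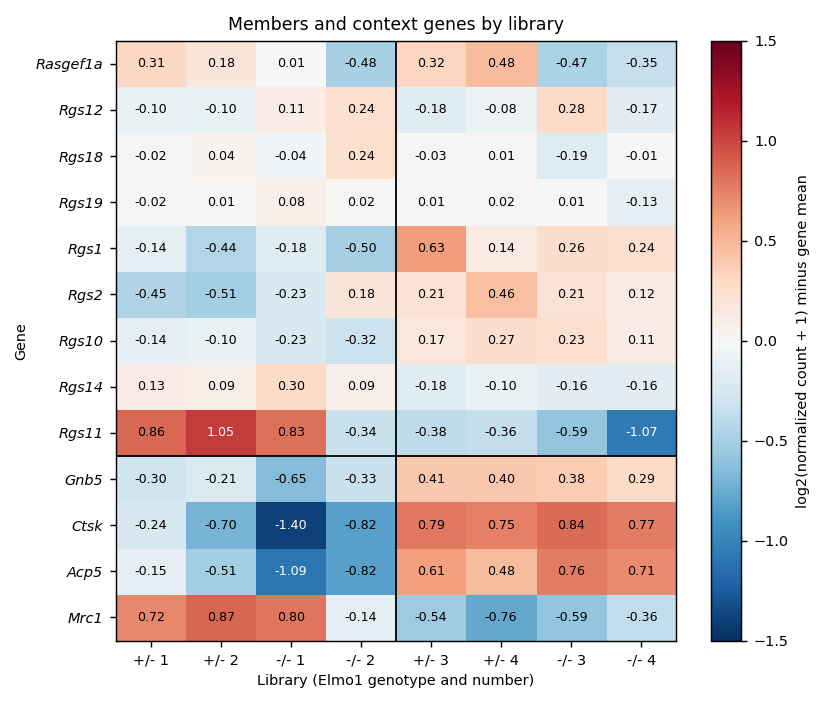
Log2(normalized count + 1) minus the gene's mean over 8 libraries (colour and number in each cell, log2) for the 9 tested members and 4 context genes (rows), by library (columns, Elmo1+/- or Elmo1-/- and mouse number, with libraries 1 and 2 left of the line). *Rgs1*, *Rgs10* and *Rgs14* change sign between the left and right blocks, *Rgs2* and *Rgs11* do so apart from Elmo1-/- mouse 2, and every Elmo1+/- value of *Rasgef1a* is above every Elmo1-/- value.

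**Figure D5:**
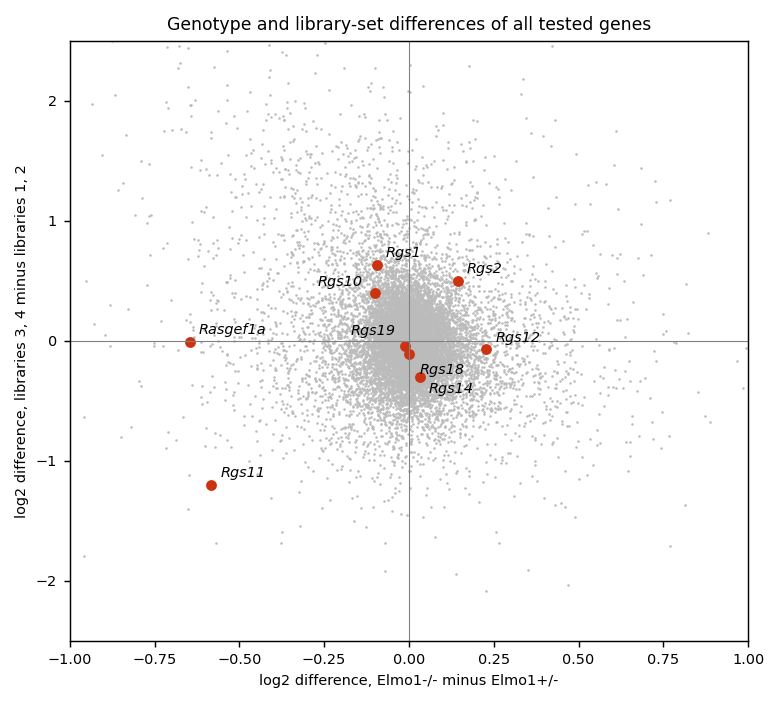
Log2 difference between genotypes (x axis, Elmo1-/- minus Elmo1+/-) against that between libraries 3 and 4 and libraries 1 and 2 (y axis) for the 14139 tested genes (gray), with the 9 tested members in red and 37 genes outside the axes not drawn. *Rasgef1a* lies at -0.65 on the x axis and -0.01 on the y axis, and *Rgs11* is low on both, at -0.58 and -1.20.

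The genes nearest in pattern to *Rasgef1a*, by the root mean square difference of mean-centred log2 values over 8 libraries, were *Cst7* (0.18 log2), *Gm29668* (0.20) and *Fam110c* (0.21), against a spread of 0.36 for *Rasgef1a* itself. For *Rgs11* they were *Pi16* (0.21), *Thsd1* (0.22) and *Shb* (0.24), against its own spread of 0.74. *Shb*, an adaptor of receptor tyrosine kinases, had 432, 229, 176 and 153 normalized counts across Elmo1-/- mice 1 to 4, against 419, 369, 181 and 179 across Elmo1+/- mice 1 to 4. It showed the pattern of *Rgs11* at a higher count, with the same 3 high libraries.

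The wider machinery around the RGS genes was read from lists of G protein subunits, RGS partners, effectors, Ras and Rap GTPases with their exchange factors and activating proteins, and G protein-coupled receptors of myeloid cells. Of 154 such genes, family genes included, 129 passed the limit for testing, and 0 were called between genotypes by limma, with a median log2 difference of -0.01. An unadjusted p under 0.05 was reached by 1 of them, *Adcy6*, an adenylyl cyclase with a log2 difference of -1.27, against 0.941% of all tested genes. Non-overlapping genotypes were found for 2 of the 129 (1.55%), *Adcy6* and *Ralb*, a Ras-like GTPase, against 0.941% of all tested genes. Among the G protein alpha subunits, the direct targets of RGS proteins, 0 of 11 were called, and their log2 differences ran from -0.16 (*Gnao1*) to 0.43 (*Gnai1*). Among the beta and gamma subunits, 0 of 11 were called, with *Gnb5* the lowest at -0.15 and *Gng10* the highest at 0.12. The Ras and Rap GTPases ran from -0.19 (*Mras*) to 0.09 (*Rap2b*), with 0 of 13 called. *Rap2b* is of the Rap2 group, on which the *Rasgef1a* protein acts. The exchange factors and activating proteins ran from -0.65 (*Rapgef4*) to 0.19 (*Rasgrp1*), with 0 of 31 called. Of the 32 myeloid receptors, 0 were called, from -0.25 (*Ccr2*) to 0.43 (*Cx3cr1*). Between the sets of libraries, 64 of the 129 genes (49.6%) did not overlap, against 34.0% of all tested genes.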

How the data were processed

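Osteoclast mRNA of 8 mice (4 per genotype) was sequenced on TruSeq libraries as 75 bp paired-end reads. The authors deposited a normalized signal, each gene's read count divided by a DESeq2 size factor. The submitters' processing notes name FastQC, STAR, featureCounts and DESeq2, and the build, annotation and strand setting were not stated there or in the methods. The authors' own comparison columns (fold change, test statistic, p-values) were not used. Columns of other samples numbered 0. Undoing the size factors returned whole reads for 100% of the values (tolerance 0.01 of a read), so edgeR 4.0.16 (quasi-likelihood, TMM) was run on those reads as an alternative and called 1 of 14206 genes.

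Genotypes were compared with limma 3.58.1 under R 4.3.3 (trend and robust empirical Bayes) on log2(normalized count + 1) over the 14139 genes that reached 10 normalized counts in 4 or more libraries, with Benjamini-Hochberg adjustment over all of them and a threshold of 0.05. The pseudocount understates the change of low genes. Exact two-sided permutation tests of the means ran over 70 arrangements (smallest possible p 0.0286). Standard deviations are over mice, and p-values measure the spread between these mice. The main fit and the permutation tests do not separate the sets. Their p-values, standard errors and intervals thus include the shift between libraries 1 and 2 and libraries 3 and 4. With the set as a term, limma called 1 gene, and 411 had an unadjusted p under 0.05. Of the 7 tested members not chosen by the study, 0 were among these.

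Symbols and lengths came from GENCODE mouse release 21 (GRCm38), with 46005 identifiers matched and 512 not. Named genes were the 10 members, *Elmo1*, the highest and lowest tested gene of each list, and the 3 nearest profiles of *Rasgef1a* and *Rgs11*. Other genes (*Gnb5*, *Rgs9*, *Ctsk*, *Acp5*, *Mrc1*, *Ralb* and the lineage markers) were taken from the lists and named after their values were seen. Members and lists were chosen with earlier results of these data known. Same-numbered libraries of the genotypes deviated together from their genotype means (r of 0.156 to 0.703 across genes in the 4 pairs). This passed the limit of 0.1, so the replicate block was run with them as pairs. Differently numbered libraries of the same set gave r of 0.691 (Elmo1-/- mouse 1 with Elmo1+/- mouse 2) and 0.0259 (2 with 1). In the other set r was 0.561 (Elmo1-/- mouse 3 with Elmo1+/- mouse 4) and 0.614 (4 with 3). These values cannot tell pairing by number from a shared set, and the sources leave the numbers unexplained. Within a genotype, no library was a copy of another (chi-square per gene of 8.72 or more). Of the members' sequence, 36 of 4768 stretches of 75 bases in *Rgs11* also lie in *Arhgdig* and 321 of 8753 in *Rgs12* also lie in *Gm43791*, on the opposite strand, and none in the other 8. Scripts were tested on simulated data. Python 3.11.15, pandas 2.3.3, numpy 2.4.6 and matplotlib 3.10.9 were used.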

Additional observations from a re-analysis of the deposited data

Results flagged for a closer look

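*Rgs2* ran in opposite directions between genotypes in the 2 sets of libraries, with every Elmo1-/- library above every Elmo1+/- library in libraries 1 and 2 and below in libraries 3 and 4. The difference of the genotype differences, libraries 3 and 4 minus libraries 1 and 2, was -0.63 on the log2 scale (limma interaction, unadjusted p = 0.0140, adjusted p = 0.9999), and 0 genes were called by this interaction, with 378 of 14139 at an unadjusted p under 0.05. *Rgs19* showed the same kind of reversal at a smaller size, -0.13 (limma adjusted p = 0.9999). For *Rasgef1b* it was -1.16 on 4 to 10 reads per library, and this difference was not tested because the gene was below the limit for testing. Such a reversal was found in 575 of the 14139 tested genes (4.07%).

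In *Rgs19*, Elmo1+/- mouse 1, at 3061 normalized counts, stood apart from the other 3 Elmo1+/- mice (3119 to 3130), with a gap of 0.843 of the group's range. It was the only outlying library in the 20 groups of 4 examined, where chance gives about 1 in 20.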

How the results depend on the processing

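The number of members called between genotypes was 0 under every alternative run, the replicate block included. At the alternative limit of 50 normalized counts in 4 or more libraries, only the 7 tested members not chosen by the study were fitted. Over all tested genes 1 was called (*Elmo1*), and 2 (*Gpr137b-ps* added) in libraries 3 and 4 only. Leaving out each library in turn gave 1 to 2, with 2 without Elmo1+/- mouse 2. With the replicate block, which fits same-numbered libraries as pairs, limma called 1 gene at an adjusted p under 0.05. The block gave 389 genes at an unadjusted p under 0.05, against 133 without it, and changed no call. Members whose genotypes did not overlap numbered 1 to 2 over the leave-one-out fits, 2 without Elmo1-/- mouse 4 (*Rasgef1a* and *Rgs12*).

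The directions of *Rasgef1a* (-0.81 to -0.49), *Rgs11* (-0.96 to -0.33), *Rgs12* (0.17 to 0.32) and *Rgs10* (-0.19 to -0.01) held in all alternatives in which each was fitted. *Rasgef1a* and *Rgs11* were not fitted at the limit of 50 normalized counts. The study selected both on this contrast, so nothing is read from their steady direction. With all adjusted p (limma or edgeR) between 0.937 and 0.99999, *Rgs1*, *Rgs2*, *Rgs14*, *Rgs18* and *Rgs19* turned. In libraries 3 and 4 only, *Rgs2* was -0.17 and *Rgs14* -0.021, and in libraries 1 and 2 only, *Rgs18* was 0.088 and *Rgs19* 0.051. *Rgs18*, at -0.00, was 0.0047 by edgeR and 0.0056 with equal library totals. Leaving out libraries moved *Rgs1* from -0.26 to 0.10, *Rgs2* from -0.0028 to 0.32, *Rgs14* from -0.063 to 0.092, *Rgs18* from -0.081 to 0.062 and *Rgs19* from -0.041 to 0.029. The causes were not tested. *Rgs2* (libraries 1 and 2 only) and *Rgs12* (without Elmo1-/- mouse 4) reached an unadjusted p under 0.05 there. The set term, its interaction with genotype and the block with edgeR were added after the data were seen. Low depth limits *Rasgef1a*, *Rasgef1b* and *Rgs11*.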
